A study of Homo sapiens with 10 samples.

Results

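The Hippo pathway effectors YAP1 and WWTR1 (the gene of TAZ), their 4 DNA-binding partners TEAD1 to TEAD4, and 4 genes that they are known to activate, CTGF, CYR61, AMOTL2 and LATS2, were followed through 4 differentiations of human embryonic stem cells. The 10 genes were chosen by name, and all 10 were found in each of the 4 deposited tables, among 22848 symbols on chromosomes 1 to 22 and X that the tables share. All cells came from 1 established human embryonic stem cell line, WA09, and 10 libraries of poly-A RNA were made, 2 for each of 5 cell types. The definitive endoderm (DE) was made in 4 days: FGF (8 ng/mL) and a raised activin A dose (100 ng/mL) were present throughout, and Wnt-3a (25 ng/mL) on the opening day alone. The splanchnic mesoderm (MESO) was made in 4 days in the factors of the undifferentiated cells plus Wnt-3a (25 ng/mL) and BMP-4 (100 ng/mL). The neural progenitors (NPC) were made in 6 days with IGF-I and heregulin while signalling was blocked, activin signalling by SB431542 and BMP signalling by LDN (500 nM). The pre-neural crest cells (NCSC) were made in 6 days with FGF, IGF-I, heregulin, SB431542 and BIO, an inhibitor of GSK3. The undifferentiated cells (hESC), against which each derivative was set, were kept for 4 days in FGF (8 ng/mL), IGF-I (200 ng/mL), activin A (10 ng/mL) and heregulin (10 ng/mL). All were grown on matrigel. The seeding density was 90000 cells/cm2 in NPC and NCSC and 50000 cells/cm2 in DE, MESO and hESC. Density, days and factors differed together and cannot be told apart in the comparisons of NPC and NCSC.

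In the Hippo pathway a cascade of kinases ends in LATS1 and LATS2, which phosphorylate YAP and TAZ and so keep them out of the nucleus. Without that phosphorylation, as in spread or sparsely plated cells, YAP and TAZ enter the nucleus, bind TEAD proteins and raise the transcription of genes such as CTGF and CYR61. AMOTL2 and LATS2 are targets that also restrain YAP and TAZ, so the pathway feeds back on itself. Transcript levels do not show the phosphorylation or the location of YAP and TAZ, which were not measured here.

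The regions before the gene starts are shown for CTGF and AMOTL2, since these are the members among the target genes that had a TEAD motif there, and their transcripts moved in opposite directions in MESO and NCSC. RefSeq (GRCh38.p14) gave the 250 bases before a start for 7 of the 10 members; TEAD1, TEAD4 and CYR61 had no entry. The CTGF window is chr6:131951373-131951622 and the AMOTL2 window, before the downstream of 2 listed starts, is chr3:134374448-134374697, both on the minus strand of GRCh38. In both sequences, written 5′ to 3′ on the gene's strand, capitals mark the TEAD motif GGAATG or its reverse complement.
CTGF: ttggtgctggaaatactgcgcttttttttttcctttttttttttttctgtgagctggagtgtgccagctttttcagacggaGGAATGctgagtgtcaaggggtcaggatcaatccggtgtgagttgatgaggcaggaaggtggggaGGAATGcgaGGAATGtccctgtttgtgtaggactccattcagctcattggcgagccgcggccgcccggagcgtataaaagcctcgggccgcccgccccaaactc
AMOTL2: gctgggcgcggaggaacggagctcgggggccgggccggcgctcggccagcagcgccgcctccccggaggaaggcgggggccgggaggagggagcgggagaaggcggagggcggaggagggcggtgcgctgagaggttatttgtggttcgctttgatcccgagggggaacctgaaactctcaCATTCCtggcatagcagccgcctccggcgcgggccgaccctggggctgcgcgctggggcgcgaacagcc
The CTGF window held GGAATG 3 times, with first bases at -169, -104 and -95 counted back from the start. At least 1 match on either strand was found in 11.9% of all 35116 windows of this length, and at least 3 in 29 windows (0.0826%). The AMOTL2 window held the motif once, on the other strand, at -69, and the window before the upstream start of AMOTL2 held none. YAP1 itself had 1 match, at -162, and the windows of WWTR1, TEAD2, TEAD3 and LATS2 had none. The AP-1 motif TGANTCA and the CArG box, the site of serum response factor, occurred in no member's window, against 6.57% and 1.16% of all windows searched on both strands. No match overlapped another. The matches are a description of letters, and no binding was measured.

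For each cell type a table holds a single FPKM (fragments counted per length of transcript and per depth of the library) for the 2 libraries, beside which the authors gave a statistic, its p and its q for that derivative against hESC. No spread between libraries can therefore be given, the depth is unknown, and rose or fell refers throughout to a q below 0.05 in the authors' deposited table. Changes are differences of log2(FPKM + 1), derivative minus hESC of the same table. The hESC column was printed in all 4 tables with different values. The ratio of the highest to the lowest of a member's 4 hESC values ran between 1.12-fold (LATS2) and 1.56-fold (AMOTL2), against a median of 1.24-fold over 12958 symbols with at least 1 FPKM in every hESC column. The labels give 2 hESC libraries in all, so this range shows how the same libraries varied between tables and not the spread between samples. A smaller ratio between cell types is not read as a difference, a larger one is not thereby shown to be one, and levels were not tested across tables. Calls are also set beside normal p-values, which were computed from the deposited statistic with a normal distribution and adjusted over all tested loci. All 10 members had at least 1 FPKM and were tested in every table, with mean levels between the 62.1 and the 95.9 percentile of the symbols of a table.

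The cultures were checked against their markers. Of all tested loci 0.406% rose and 0.0203% fell in DE, and 9.05% and 5.37% in MESO. In NPC 12.0% rose and 24.8% fell, and in NCSC 10.2% and 19.7%. Of 5 endoderm markers 4 rose in DE, and FOXA2, listed at 35.2 FPKM in DE against 1.27 FPKM in hESC, did not pass. All 6 splanchnic mesoderm markers rose in MESO, and 4 of 5 neural markers rose in NPC. Of the mesoderm markers GATA4 and GATA6, the latter on the endoderm list too, also rose in DE. They were at 56.1 and 104 FPKM in DE, against 49.3 and 9.84 FPKM in MESO. The endoderm marker CXCR4 rose in all 4 derivatives, to 176 FPKM in DE, 10.8 FPKM in MESO, 16.6 FPKM in NPC and 10.6 FPKM in NCSC. In NCSC, PAX3 and SOX9 rose, while TFAP2A, PAX7 and ZIC1, other genes of the neural plate border and crest, were listed at 0.0463, 0.0512 and 0.116 FPKM, and SOX10 at 2.91 FPKM against 2.57 FPKM in hESC. Of the 6 crest markers 3 rose in MESO too, among them TFAP2A (38.8 FPKM) and SOX9 (31.9 FPKM), and 3 rose in NPC, among them SOX9 (23.4 FPKM, against 16.1 FPKM in NCSC). The neural marker SOX1 rose in NCSC (9.56 FPKM) as well as in NPC (5.24 FPKM). PAX3 stood at 18.6 FPKM in NCSC and at no more than 2.06 FPKM in the other derivatives. Of 5 pluripotency markers none passed in DE, 4 fell in MESO, 4 fell and SOX2 rose in NPC, and 3 fell in NCSC. In DE all 5 were still listed below hESC. POU5F1 was at 29.7 FPKM in DE and 232 FPKM in hESC, SOX2 at 60.9 and 238 FPKM, and DNMT3B at 250 and 834 FPKM. ZFP42 was at 19.4 and 85.3 FPKM, and LIN28A at 260 and 406 FPKM. Only 3 of 14789 tested loci fell in DE, so a marker or member that did not pass there is not shown to be unchanged.

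**Figure D1:**
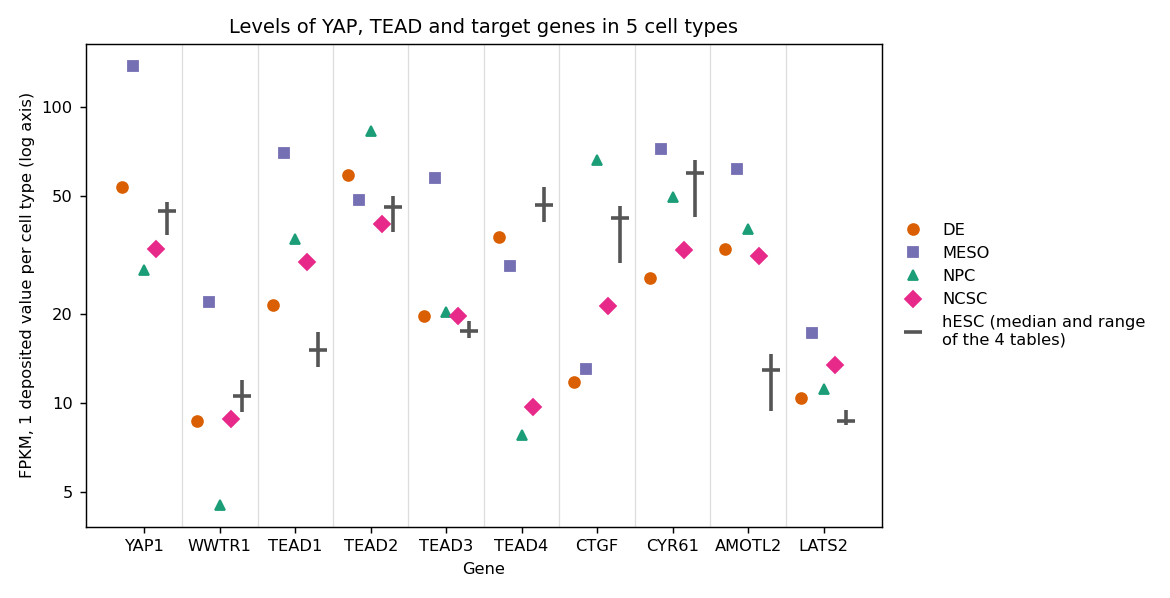
FPKM (log axis) of the 10 genes in DE, MESO, NPC and NCSC, 1 deposited value each, and in hESC, where the bar spans the 4 tables and the tick is their median. YAP1, WWTR1, TEAD1, TEAD3, CYR61, AMOTL2 and LATS2 were highest in MESO, TEAD2 and CTGF in NPC, and TEAD4 in hESC. CYR61 in MESO was 1.2-fold the hESC median, and the hESC median of TEAD4 was 1.27-fold its DE level. Both ratios were within the range of the hESC columns and are not read as differences.

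The listed levels of both effectors were highest in MESO and lowest in NPC, though for YAP1 NPC and NCSC differed by less than the range of the hESC columns. YAP1, the main effector of the pathway, stood at 53.8 FPKM in DE, 138 FPKM in MESO, 28.2 FPKM in NPC and 33.3 FPKM in NCSC, against 36.9, 41.5, 47.8 and 47.8 FPKM in hESC of the same tables. MESO lay far above the hESC range and DE just above it, and NPC and NCSC lay below it. By the q-values of the authors' deposited tables YAP1 rose in MESO (log2 change 1.71, q = 0.00155) and fell in NPC (log2 change -0.74, q = 0.0227). Neither call held with normal p-values (adjusted p = 0.0524 in MESO and 0.154 in NPC), and the NPC change was -0.30 after quantile normalization and -0.47 centred on the median of all loci. YAP1 did not pass in NCSC (log2 change -0.51, q = 0.153) or in DE (log2 change 0.53, q = 0.999 in the authors' deposited tables). The locus spans 101980424 to 102104275 on chromosome 11 (hg19, MESO table).

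WWTR1, whose protein TAZ is the paralog of YAP, was less abundant in every cell type. It was listed at 8.69 FPKM in DE, 22 FPKM in MESO, 4.54 FPKM in NPC and 8.83 FPKM in NCSC, against 12.0, 9.35, 11.0 and 10.3 FPKM in hESC. The order of the extremes was that of YAP1, with MESO highest and NPC lowest. In the authors' deposited tables WWTR1 rose in MESO (log2 change 1.15, q = 0.0412) and fell in NPC (log2 change -1.12, q = 0.00086). With normal p-values the MESO call was lost (adjusted p = 0.292) and the NPC call held. The log2 changes of WWTR1 of -0.42 in DE (q = 0.999) and -0.20 in NCSC (q = 0.612) missed the threshold in the authors' deposited tables, and the NCSC value was 0.03 once centred on the median of all loci. An antisense gene, WWTR1-AS1, overlaps the locus (chromosome 3, 149235016 to 149421060, hg19) and was listed at no more than 0.125 FPKM in any column.

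Added together, YAP1 and WWTR1 came to 62.5 FPKM in DE, 160 FPKM in MESO, 32.7 FPKM in NPC and 42.1 FPKM in NCSC, against 48.8 to 58.8 FPKM in hESC. YAP1 made up 86.1% of that sum in DE, 86.3% in MESO, 86.1% in NPC and 79.0% in NCSC, against 75.5% to 82.3% in hESC. The sum thus differed 4.9-fold between MESO and NPC while the share of YAP1 was nearly the same in both. In the order of YAP1 levels, DE and the hESC median differed by 1.21-fold and NCSC and NPC by 1.18-fold, both less than the 1.3-fold range of the hESC columns.

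The TEAD genes, which encode transcription factors with a shared TEA DNA-binding domain, did not move together. TEAD1 was listed at 21.5 FPKM in DE, 69.9 FPKM in MESO, 35.9 FPKM in NPC and 30.0 FPKM in NCSC, against 14.9, 13.3, 17.4 and 15.4 FPKM in hESC. Every derivative thus lay above the whole hESC range. TEAD1 rose in MESO (log2 change 2.31, q = 0.000868), NPC (1.00, q = 0.000607) and NCSC (0.92, q = 0.00312 in the authors' deposited tables). The NCSC call was lost with normal p-values (adjusted p = 0.0716). In DE the log2 change was 0.50, with q = 0.999 in the authors' deposited table. The locus spans 12695863 to 12966358 on chromosome 11 (hg19, MESO table).

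TEAD4, which the mouse embryo needs to form the trophectoderm, went the other way in NPC and NCSC. It was listed at 36.6 FPKM in DE, 29.1 FPKM in MESO, 7.82 FPKM in NPC and 9.71 FPKM in NCSC, against 53.9, 41.0, 50.5 and 42.8 FPKM in hESC. NPC and NCSC lay far below hESC, and DE and MESO were listed below it too. The hESC median was 1.27-fold the DE level, less than the 1.32-fold range of the hESC columns, and this is not read as a difference. TEAD4 fell in NPC (log2 change -2.55, q = 0.000323) and in NCSC (-2.03, q = 0.000455 in the authors' deposited tables), and levels in hESC exceeded those in these derivatives by 6.46-fold and 4.41-fold. The log2 changes were -0.55 in DE (q = 0.999) and -0.48 in MESO (q = 0.568), by the authors' deposited tables not called. The locus spans 3068477 to 3155321 on chromosome 12 (hg19).

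TEAD3 was set apart by MESO alone. Its level was 19.8 FPKM in DE, 57.8 FPKM in MESO, 20.4 FPKM in NPC and 19.7 FPKM in NCSC, against 16.6, 17.2, 19.0 and 17.8 FPKM in hESC. It rose in MESO (log2 change 1.69, q = 0.00155 in the authors' deposited table), and its other log2 changes, between 0.10 and 0.24, did not pass. The levels of NPC, DE, NCSC and hESC differed from their neighbours in that order by at most 1.13-fold, less than the 1.15-fold range of the hESC columns. A further row of TEAD3 in the NCSC table, at 0.189 FPKM in NCSC and 0.335 FPKM in hESC, was not used.

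TEAD2, the most abundant TEAD gene in DE, NPC and NCSC, was listed at 58.9 FPKM in DE, 48.5 FPKM in MESO, 83.5 FPKM in NPC and 40.2 FPKM in NCSC, against 37.8, 44.9, 50.04 and 46.9 FPKM in hESC. Only NPC passed, where it rose (log2 change 0.73, q = 0.0429 in the authors' deposited table). That call was lost with normal p-values (adjusted p = 0.241), and the change was 1.27 after quantile normalization. Its level was highest in NPC, and neighbours in the remaining order (DE, MESO, hESC and NCSC) differed by less than the 1.33-fold range of the hESC columns. CD37 overlaps the TEAD2 locus (chromosome 19, 49833106 to 49866841, hg19, MESO table) and was listed at no more than 0.455 FPKM.

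The makeup of the TEAD transcripts differed between the cell types. The 4 genes together had 137 FPKM in DE, 205 FPKM in MESO, 148 FPKM in NPC and 99.6 FPKM in NCSC, against 116 to 137 FPKM in hESC. TEAD4 made up 26.8% of the sum in DE, 14.2% in MESO, 5.3% in NPC and 9.75% in NCSC, against 34.8% to 43.8% in hESC. TEAD1 made up 15.7% in DE, 34.1% in MESO, 24.3% in NPC and 30.1% in NCSC, against 11.5% to 12.7% in hESC. TEAD2 reached 56.5% in NPC, against 30.6% to 38.6% in hESC, and TEAD3 reached 28.1% in MESO, against 13.5% to 14.8% in hESC. The ratio of TEAD1 to TEAD4 was thus 2.4 in MESO, 4.6 in NPC and 3.09 in NCSC, whereas it was 0.587 in DE and 0.277 to 0.359 in hESC.

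**Figure D2:**
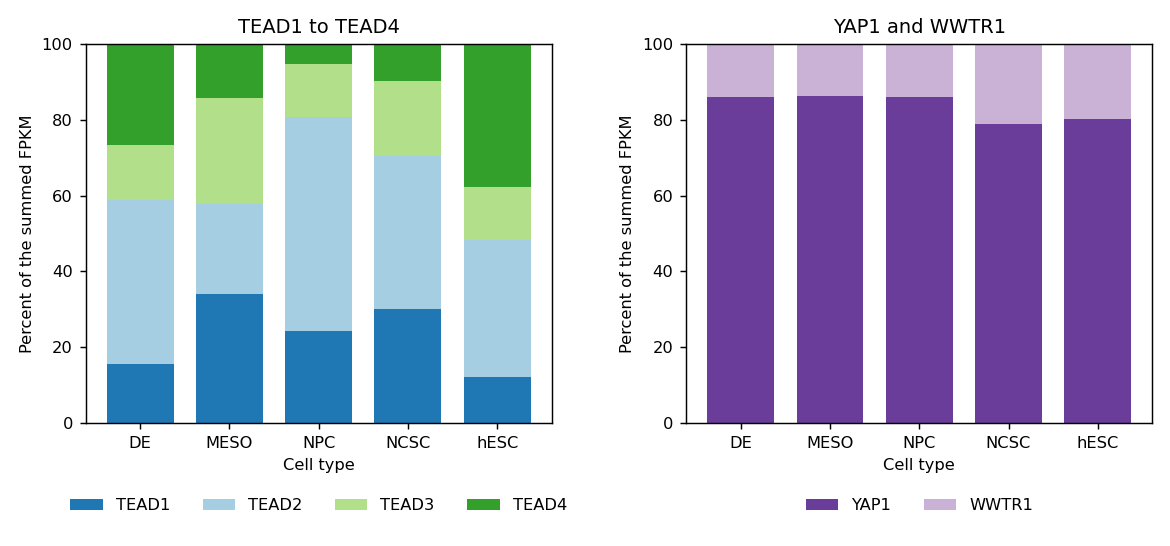
Percent of the summed FPKM held by each TEAD gene (left) and by YAP1 and WWTR1 (right) in DE, MESO, NPC, NCSC and hESC, the last as the mean of 4 tables. TEAD4 held 5.3% in NPC and 37.7% in hESC, while YAP1 held between 79.0% and 86.3% in every column.

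The 4 target genes did not share 1 direction. CTGF, a secreted matrix-associated protein and the most used readout of YAP and TAZ activity, was listed at 11.8 FPKM in DE, 13.1 FPKM in MESO, 66.4 FPKM in NPC and 21.3 FPKM in NCSC, against 29.9, 40.8, 46.3 and 43.8 FPKM in hESC. NPC was the one derivative above hESC, and the other 3 lay below the whole hESC range. CTGF fell in MESO (log2 change -1.57, q = 0.00374) and NCSC (-1.01, q = 0.00312 in the authors' deposited tables). Both calls were lost with normal p-values (adjusted p = 0.088 in MESO and 0.0691 in NCSC). The log2 change of 0.51 in NPC (q = 0.156) and that of -1.27 in DE (unadjusted p = 0.0813, q = 0.999 in the authors' deposited tables) did not pass. In MESO, where CTGF fell, YAP1, WWTR1, TEAD1 and TEAD3 rose by the authors' q-value, but of these 5 calls TEAD1 and TEAD3 alone held with normal p-values. The locus spans 132269316 to 132272518 on chromosome 6 (hg19, MESO table), apart from any other listed gene.

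CYR61, a secreted protein of the same family as CTGF, was listed at 26.6 FPKM in DE, 72.1 FPKM in MESO, 49.6 FPKM in NPC and 32.9 FPKM in NCSC, against 42.7, 57.8, 66.3 and 62.3 FPKM in hESC. Its listed value was above hESC of the same table in MESO and below it in the other 3 derivatives. MESO was 1.2-fold the hESC median and that median 1.21-fold NPC, and neither is read as a difference. No neighbours in its order of levels were farther apart than the 1.55-fold range of the hESC columns. Its highest and lowest levels, in MESO and DE, differed 2.71-fold, more than that range. CYR61 fell in NCSC (log2 change -0.90, q = 0.00801 in the authors' deposited table). That call was lost with normal p-values (adjusted p = 0.105), and the change was -0.56 after quantile normalization. The log2 changes were -0.66 in DE (q = 0.999), 0.32 in MESO (q = 0.721) and -0.41 in NPC (q = 0.253), by the authors' deposited tables not called, and the NPC value was 0.09 after quantile normalization. The locus spans 86046443 to 86049648 on chromosome 1 (hg19).

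AMOTL2, a junction protein of the angiomotin family that binds YAP and holds it in the cytoplasm, was above hESC in every derivative. It was listed at 33.3 FPKM in DE, 62.0 FPKM in MESO, 38.9 FPKM in NPC and 31.4 FPKM in NCSC, against 9.44, 12.8, 14.7 and 13.3 FPKM in hESC. The lowest derivative, NCSC, was 2.41-fold the hESC median. AMOTL2 rose in MESO (log2 change 2.19, q = 0.000868), NPC (1.35, q = 0.000323) and NCSC (1.18, q = 0.000455 in the authors' deposited tables). In DE its log2 change of 1.72 was the largest of the 10 members there, with an unadjusted p of 0.0055 and q = 0.239 in the authors' deposited table. The locus spans 134074189 to 134093406 on chromosome 3 (hg19).

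LATS2, the kinase that phosphorylates YAP and TAZ, was above hESC in every derivative and passed in none. It was listed at 10.4 FPKM in DE, 17.3 FPKM in MESO, 11.2 FPKM in NPC and 13.5 FPKM in NCSC, against 8.53, 8.45, 9.48 and 8.93 FPKM in hESC. Its log2 change was 0.95 in MESO (unadjusted p = 0.0158, q = 0.0918) and 0.55 in NCSC (unadjusted p = 0.0417, q = 0.126 in the authors' deposited tables). The locus spans 21547174 to 21635722 on chromosome 13 (hg19, MESO table).

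**Figure D3:**
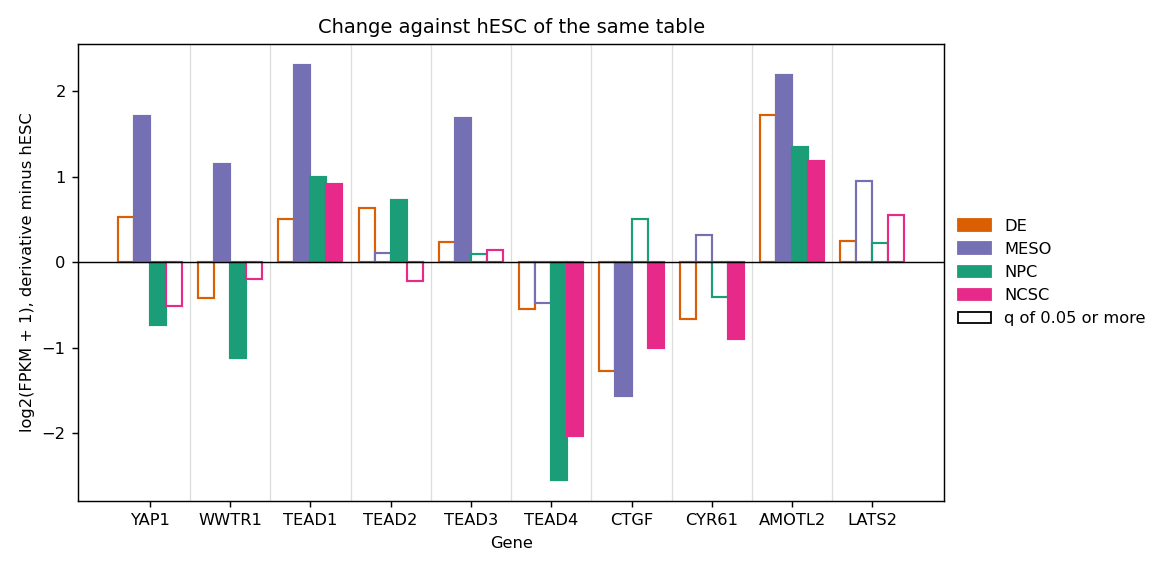
Difference of log2(FPKM + 1), derivative minus hESC of the same table, for the 10 genes. Filled bars have q below 0.05 in the authors' deposited table, open bars do not. AMOTL2 and TEAD1 were filled and positive in MESO, NPC and NCSC, TEAD4 was filled and negative in NPC and NCSC, and YAP1 and WWTR1 were filled with opposite signs in MESO and NPC.

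Counted by comparison, in MESO 5 of the 10 members rose and 1 fell, while 9.05% of all 14796 tested loci rose and 5.37% fell (14.4% in either direction). The members' median log2 change in MESO was 1.05, and that of all tested loci was 0.06. In NPC 3 members rose and 3 fell, while 12.0% of 14863 loci rose and 24.8% fell (36.8% in either direction), and the medians were 0.16 for the members and -0.25 for all loci. The members' NPC median was 0.40 after quantile normalization and 0.43 when centred. In NCSC 2 members rose and 3 fell, while 10.2% of 14901 loci rose and 19.7% fell (29.9% in either direction), and both medians were -0.21. The members' NCSC median turned positive after quantile normalization (0.06) and when centred (0.02). In DE none of the 10 passed by the authors' deposited q-value and 1 had an unadjusted p below 0.05, while 0.406% of 14789 loci rose and 0.0203% fell (0.426% in either direction). The DE medians were 0.25 for the members and 0.04 for all loci. Loci with a mean of at least 5 FPKM, as all members had, were called in either direction in 13.9% of cases in MESO, 37.6% in NPC, 30.1% in NCSC and 0.577% in DE. Where loci below 1 FPKM in both cell types were left aside, the median log2 change was -0.27 in NPC and -0.23 in NCSC, so that a member with no change there stood above the median locus.

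Several calls did not hold with normal p-values. By that rule 3 members rose and 0 fell in MESO, where 5.62% of loci rose and 2.99% fell. In NPC 2 rose and 2 fell, where 7.17% of loci rose and 16.2% fell, and in NCSC 1 rose and 1 fell, where 5.65% rose and 11.2% fell. In DE 0 members were called, where 1.16% of loci rose and 0.142% fell. TEAD1, TEAD3 and AMOTL2 in MESO, WWTR1, TEAD1, TEAD4 and AMOTL2 in NPC, and TEAD4 and AMOTL2 in NCSC stayed called. With the authors' q-value kept and a log2 change of at least 1 required as well, AMOTL2 was the one member that rose in NCSC, where 6.5% of loci did. By that rule TEAD1 and CYR61 in NCSC and YAP1 and TEAD2 in NPC lost their calls.

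Genes of other cell types were counted in the same tables. Of all loci 9.05% rose and 5.37% fell in MESO, 24.8% fell in NPC, and 10.2% rose and 19.7% fell in NCSC. In DE 0.426% were called in either direction. The falls of amnion and trophoblast markers in NPC and NCSC, and of 1 fibroblast marker in NPC, were near or below these shares. Of 9 amnion and trophoblast markers 6 rose in MESO (sum 598 FPKM in MESO and 19.9 FPKM in hESC). They were GABRP (230 FPKM), GATA3 (114 FPKM), CGA (95.3 FPKM), TFAP2C (56.3 FPKM), KRT7 (51.1 FPKM) and VTCN1 (44.9 FPKM). Not called in MESO were CDX2 (5.18 FPKM), TP63 (1.81 FPKM) and ELF5 (0.076 FPKM). Of the same 9 markers 2 fell in NPC (sum 0.699 FPKM in NPC and 22.3 FPKM in hESC) and 2 fell in NCSC (11.4 and 21.4 FPKM). Of 6 fibroblast markers 5 rose in MESO (1220 FPKM in MESO and 115 FPKM in hESC), 1 fell in NPC (35.4 and 122 FPKM), and COL1A1 and COL1A2 rose in NCSC (742 and 113 FPKM), where the other 4 were below 1 FPKM. Of 4 endothelial markers KDR and TEK rose in MESO (94.0 and 13.6 FPKM) and fell in NPC (4.64 and 16.1 FPKM) and NCSC (3.47 and 14.9 FPKM), with PECAM1 at 0.0701 FPKM and CDH5 at 0.833 FPKM in MESO. Of 4 epithelial junction genes 1 fell in MESO (595 and 784 FPKM), and all 4 fell in NPC (20.3 and 881 FPKM) and in NCSC (75.5 and 825 FPKM). In DE none of these lists had a called member, and the sums in DE and hESC were 15 and 23.1, 129 and 136, 14.3 and 17.5, and 733 and 746 FPKM in the same order. The part of these genes in the results for YAP1, the TEAD genes and their targets was not tested, and in bulk RNA fewer cells of a type and less RNA per cell cannot be told apart.

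Of the 6 core kinases and scaffolds (STK3, STK4, SAV1, MOB1A, MOB1B and LATS1) only SAV1, the adaptor of the STK3 and STK4 kinases, passed. SAV1 fell in NPC (14.6 FPKM, against 36.7 FPKM in hESC) and in NCSC (12.0 FPKM, against 31.9 FPKM in hESC), with q = 0.000323 and 0.000455 in the authors' deposited tables. That is 1 of 6 in each, beside 24.8% of all loci that fell in NPC and 19.7% in NCSC, and so no more than the background. In MESO and DE, where 14.4% and 0.426% of all loci were called in either direction, none of the 6 passed. SAV1 stood at 14.8 FPKM in MESO and 29.3 FPKM in hESC (q = 0.151 in the authors' deposited table), and at 25.5 FPKM in DE and 32.0 FPKM in hESC. MOB1A, the cofactor of the LATS kinases, stood at 45.4 FPKM in MESO and 47.3 FPKM in hESC, and at 51.3 FPKM in DE and 60.9 FPKM in hESC.

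Among 24 upstream and junction proteins, of which 23 were measured in MESO and NPC, 5 rose and 1 fell in MESO. In NPC 2 rose and 8 fell, and in NCSC 1 rose and 5 fell. None passed in DE, where 0.426% of all loci were called in either direction. Beside these stand 9.05% of all loci that rose and 5.37% that fell in MESO, 12.0% and 24.8% in NPC, and 10.2% and 19.7% in NCSC. The fall in MESO, the rises in NPC, and the rise and the falls in NCSC were thus near or below the background. The 2 angiomotin relatives of AMOTL2 rose in MESO: AMOT was at 35.0 FPKM in MESO and 1.90 FPKM in hESC, and AMOTL1 was at 27.2 FPKM in MESO and 6.07 FPKM in hESC. FRMD6, a membrane-linked activator of the cascade, rose as well, to 34.4 FPKM in MESO, against 5.19 FPKM in hESC. In NPC the genes that fell included WWC1, the gene of KIBRA (2.03 FPKM in NPC and 7.92 FPKM in hESC), PTPN14, a phosphatase that binds YAP (8.66 and 21.6 FPKM), and the kinase TAOK3 (1.03 and 3.37 FPKM). In NCSC CRB3, an apical polarity gene, fell to 0.112 FPKM, against 11.9 FPKM in hESC, and AMOT rose to 9.50 FPKM, against 1.99 FPKM. Both had the same direction in NPC, where they are named after their values were seen. CRB3 was at 0 FPKM in NPC and 12.7 FPKM in hESC, not called (q = 0.172 in the authors' deposited table). AMOT rose in NPC to 5.43 FPKM, against 2.14 FPKM in hESC. The polarity gene SCRIB fell in MESO (28.7 and 160 FPKM), NPC (101 and 163 FPKM) and NCSC (23.2 and 150 FPKM) and was at 29.1 FPKM in DE and 315 FPKM in hESC without passing. Its hESC value in the DE table was thus far from those of the other tables, and its level is uncertain. CTNNA1, the gene of alpha-catenin, was at 146 FPKM in DE and 147 FPKM in hESC.

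Proteins that hold LATS back are given next. Of 8 such genes, 1 rose in MESO, 2 rose and 2 fell in NPC, 2 rose and 1 fell in NCSC, and none passed in DE. The rise in MESO and the falls in NPC and NCSC were near or below the background. Of all loci 9.05% rose in MESO, and 24.8% fell in NPC and 19.7% in NCSC. The rises in NPC and NCSC stand beside 12.0% and 10.2% of all loci. In DE 0.426% of all loci were called in either direction. AJUBA, a LIM domain protein that binds LATS at junctions, rose in NPC (52.6 FPKM, against 20.1 FPKM in hESC) and in NCSC (47.7 FPKM, against 18.9 FPKM in hESC). Its relative WTIP rose in MESO (16.5 and 5.12 FPKM), NPC (13 and 5.54 FPKM) and NCSC (11.2 and 5.18 FPKM). STRN, a striatin of a phosphatase complex that acts on the core kinases, fell in NPC (2.88 and 11.1 FPKM) and in NCSC (3.03 and 10.4 FPKM), and LIMD1, another LIM protein, fell in NPC (5.65 and 11.8 FPKM). In DE AJUBA was at 17.6 FPKM and 14.9 FPKM in hESC, and STRN3, a second striatin, at 29.0 FPKM and 19.6 FPKM in hESC, neither called.

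VGLL4, which competes with YAP for TEAD, rose in MESO, NPC and NCSC. It was listed at 18.3 FPKM in DE, 34.8 FPKM in MESO, 33.9 FPKM in NPC and 70.9 FPKM in NCSC, against 12.8, 13.6, 14.8 and 13.9 FPKM in hESC. Its q-values were 0.0434 in MESO, 0.00179 in NPC and 0.000455 in NCSC in the authors' deposited tables, and it did not pass in DE. VGLL3 fell in MESO (0.222 FPKM, against 1.83 FPKM in hESC) and NPC (0.728 FPKM, against 2.25 FPKM in hESC) and rose in NCSC (7.84 FPKM, against 2.08 FPKM in hESC). In DE VGLL3 was at 0.778 FPKM and 1.92 FPKM in hESC, not called. Of the other genes of this list of 4, VGLL2 was below 1 FPKM everywhere. VGLL1, named after its value was seen, was at 17.9 FPKM in MESO and 0.0175 FPKM in hESC and not called (q = 0.415 by the authors' deposited table), and below 1 FPKM in all other columns.

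A further 18 known YAP and TAZ targets were counted in the same way. In MESO 11 rose and none fell, in NPC 5 rose and 5 fell, and in NCSC 5 rose and 4 fell. None passed in DE, where 0.426% of all loci were called in either direction. Of all loci 9.05% rose and 5.37% fell in MESO, 12.0% rose and 24.8% fell in NPC, and 10.2% rose and 19.7% fell in NCSC, so the falls in NPC and NCSC were near the background. The median log2 change of the 18 was 1.88 in MESO, 0.12 in NPC, 0.21 in NCSC and 0.26 in DE, beside 0.06, -0.25, -0.21 and 0.04 for all tested loci. Between 1 gene (MESO) and 5 genes (NPC) were below 1 FPKM in both cell types, and genes near 0 in hESC can only be found higher.

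In MESO the largest rises of this list were in IGFBP3, an IGF binding protein (620 FPKM, against 3.65 FPKM in hESC), ANKRD1, an ankyrin repeat protein of heart muscle (71.3 FPKM, against 0.453 FPKM), MYOF, the membrane repair protein myoferlin (39.3 FPKM, against 2.03 FPKM), and CCDC80, a secreted matrix protein (32.2 FPKM, against 1.54 FPKM), all with q = 0.000868 in the authors' deposited table. In NPC FJX1 rose to 39.4 FPKM, against 2.94 FPKM in hESC, IGFBP3 to 32.3 FPKM, against 4.21 FPKM, and the kinase gene NUAK2 to 33.2 FPKM, against 8.57 FPKM, while F3, tissue factor, fell to 1.08 FPKM, against 4.86 FPKM. In NCSC IGFBP3 fell to 0.234 FPKM, against 3.98 FPKM in hESC, and RBMS3 (4.6 and 0.232 FPKM), GADD45A (41.0 and 11.1 FPKM) and MYOF (8.03 and 2.14 FPKM) rose. In DE GADD45A was listed at 49.0 FPKM and 16.3 FPKM in hESC (q = 0.766 in the authors' deposited table), and PTPN14, which is also among the upstream genes, at 19.1 FPKM and 20.4 FPKM in hESC. ANKRD1, named after its value was seen, was at 29.9 FPKM in DE and 0.418 FPKM in hESC (q = 0.239 in the authors' deposited table).

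**Figure D4:**
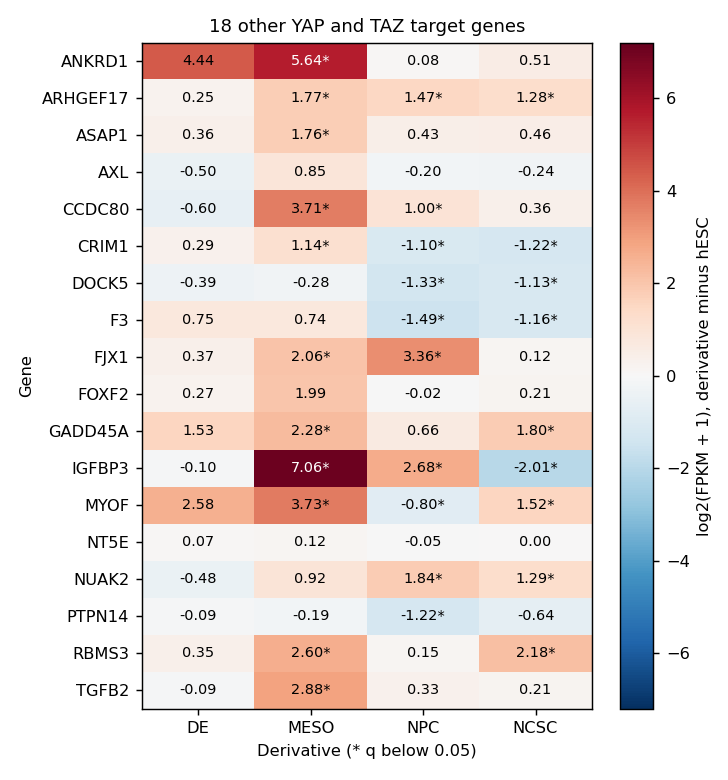
Difference of log2(FPKM + 1), derivative minus hESC of the same table, for 18 further YAP and TAZ target genes (rows) in 4 derivatives (columns), with * where q was below 0.05 in the authors' deposited table. The MESO column holds 11 marked rises and no marked fall, and the NPC column 5 of each.

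The genes whose changes lay closest to those of a member were sought among 11902 symbols that reached 1 FPKM in the derivative or hESC of every table, by Euclidean distance over the 4 log2 changes. Closest to YAP1 were MICALL1, LMNA, the gene of lamin A, and BAG3, at distances of 0.28, 0.30 and 0.30. Closest to CYR61 were PPM1D, SERTAD4 and ARMCX2, at 0.23, 0.24 and 0.29, and closest to CTGF were TTLL6, MAMDC2 and UNC5A, at 0.36, 0.42 and 0.44. By the same measure CTGF lay 5.34 from AMOTL2, and YAP1 lay 1.21 from WWTR1. With 4 changes that share the hESC libraries these distances are a description.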

How the data were processed

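The 10 libraries hold poly-A RNA, per the labels. TopHat2 2.0.13, Cufflinks 2.2.1, Subread 1.5.2, featureCounts and the hg19 build appear in the submitters' processing notes without roles. Use of strand and scaling between libraries is not stated. The 4 tables deposited by the authors hold 1 FPKM value per cell type and no depth. Per the file headers the authors also deposited a test statistic (a signed score), a p-value, of which 5e-05 was the smallest, and a q-value. Chromosomes 1 to 22 and X were used, and of several rows of a symbol the one of highest mean FPKM. A locus whose p-value was 1 and whose statistic was 0 or missing counted as untested. Changes are differences of log2(FPKM + 1), derivative minus hESC, and calls the authors' q below 0.05. No fit over libraries (limma) was possible. For the members the log2 ratio divided by the statistic lay between 0.39 and 0.80. Its medians over the tested loci of a table with a mean of at least 20 FPKM were 0.43 to 0.71. The labels do not say whether the 2 libraries of a cell type came from separate cultures, so the p-values may reflect technical spread.

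The members and lists were chosen with earlier results of these data known. All members are named, and per comparison and pathway list up to 4 called genes of largest change with at least 1 FPKM, or, with no call, the highest 2 by mean FPKM. A gene that this rule chose is not reported here. Symbols merged into a shared locus (TAOK2 in 2 tables) were left out. The background at a mean of 5 FPKM, and a q below 0.10 as an alternative, were chosen after seeing the data. A comparison of the TEAD proteins was planned and not made, for want of their sequences here. Promoter sequences are RefSeq's. Python 3.11.15 with pandas 2.3.3 and scipy 1.17.1 was used, and the calculations were tested on simulated data.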

Additional observations from a re-analysis of the deposited data

Results flagged for a closer look

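YAP1 and WWTR1 were each called in opposite directions in 2 derivatives by the authors' deposited q-value. The log2(FPKM + 1) change of YAP1 was 1.71 in MESO and -0.74 in NPC, each against hESC of the same table. That of WWTR1 was 1.15 in MESO and -1.12 in NPC. Of these 4 calls WWTR1 in NPC alone held with normal p-values from the deposited statistic; the adjusted p was 0.0524 for YAP1 in MESO, 0.154 for YAP1 in NPC and 0.292 for WWTR1 in MESO. In the authors' deposited tables q was 0.0227 for YAP1 in NPC and 0.0412 for WWTR1 in MESO, close to the threshold of 0.05. The hESC libraries are shared by both comparisons, each cell type has 1 value, and the difference between the derivatives was not tested.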

How the results depend on the processing

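With 1 value per cell type no library could be left out, and depth cannot be weighed. No paired analysis was possible because the deposited columns carry no replicate numbers. A pseudocount of 0.1 or 5 in place of 1 cannot reverse the sign of a change. Summing the rows of a symbol altered TEAD3 in NCSC alone. These settings show nothing about the stability of signs, yet they are counted below. Of 240 alternative changes of single members 235 kept their sign. The 5 others were small and uncalled: under quantile normalization TEAD2 was -0.01 in MESO and 0.12 in NCSC and CYR61 was 0.09 in NPC, and centred on the median of all loci WWTR1 was 0.03 and TEAD2 0.01 in NCSC. The cause was not tested. The members' median moved under quantile normalization to 0.11 in DE, 0.85 in MESO, 0.40 in NPC and 0.06 in NCSC, with hESC from the other 3 tables to 0.16, 0.90 and 0.29 in DE, MESO and NPC, with centring to 0.43 in NPC and 0.02 in NCSC, and with a pseudocount of 5 to 0.82 in MESO. With normal p-values 3 members rose and 0 fell in MESO, and 1 rose and 1 fell in NCSC; with a minimum log2 change of 1, 1 member rose in NCSC. Of 30 alternative counts of called members in MESO, NPC and NCSC 25 stayed within 1.5 times, a margin that takes 2 members in place of 3 as unchanged. At a q below 0.01, WWTR1 in MESO and YAP1 and TEAD2 in NPC lost their calls. With a minimum log2 change of 1, YAP1 and TEAD2 in NPC and TEAD1 and CYR61 in NCSC lost theirs. The DE counts were 0 under every rule and show nothing about stability. With at least 1 FPKM, 1 locus fell in DE in place of 3. Over single hESC columns, in percent, TEAD1 was 11.5 of the TEAD sum in the MESO table, TEAD2 30.6, TEAD3 13.5 and TEAD4 43.8 in the DE table, TEAD3 14.8 in the MESO table, and YAP1 75.5 of its sum in the DE table.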
